A study of Mus musculus with 2 samples.

Results

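C-type lectins, Siglecs and mannose receptors were read from a pair of one-color microarrays of lymph node cells sorted as stroma, by a rule on gene names. A gene belonged to the set when a non-control spot of both arrays carried a name starting with Clec and a digit, Siglec, Cd209, or Mrc and a digit. The rule found 47 genes of 37008 on the array, with 76 probes of 1 spot each. The tumor-draining group was 1 array of CD45-negative cells from the nodes of C57BL/6 females, taken 2 weeks after 4T1 mammary carcinoma cells had been placed under the skin at the mammary gland. The normal group was 1 array of CD45-negative cells sorted from lymph nodes of female mice that bore no tumor. 4T1 is known as a BALB/c line, so tumor and host differ in strain by these labels, and the number of mice behind each array and their age are not given in the sources used here.

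C-type lectins are receptors or secreted proteins built on a shared carbohydrate-recognition fold, and many of them bind sugars of microbes, of dying cells or of the body's own glycoproteins. In a lymph node the best known ones sit on dendritic cells and macrophages, where some signal through immunoreceptor tyrosine-based motifs to the kinase Syk and others recruit phosphatases and restrain the cell. A smaller number are made by endothelial cells and fibroblasts, where they take up glycoproteins or collagen or hold vessel cells together. Siglecs are immunoglobulin-type lectins that read sialic acid, mostly as inhibitory receptors of leukocytes.

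With 1 array in each group, no test was possible, and no value has a biological replicate, so precision is limited by the number of arrays. Each difference is the log2 value of the tumor-draining array minus that of the normal array, after the processed signal of each array had been divided by its 75th percentile (358 for tumor-draining, 374 for normal), and a gene is called higher or lower by size alone, at 2-fold. Each gene is represented by its brightest probe, signals are in arbitrary fluorescence units, and signals of different genes are not compared. The scanner software's own error of a member's difference ran from 0.20 to 0.41 on the log2 scale, and probes of 1 gene differed by a median SD of 0.27 over 7599 genes. Neither error covers differences between mice or between sorts. Pan-leukocyte markers were higher on the tumor-draining array although both samples had been sorted against CD45, and endothelial and fibroblastic markers were lower, as is set out beside the members below. Fewer cells of a type and less RNA per cell cannot be told apart in such bulk samples.

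Of the 47 genes, 37 were measured, meaning well above background on at least 1 array, and 35 of these were so on both. Among the 35, 12 reached 2-fold in the higher direction on the tumor-draining array (34.3%) and 9 in the lower direction (25.7%). Over all 22152 genes above background on both arrays, 11.1% were higher and 15.9% lower. The 35 had a median difference of 0.31, against 0.12 over those 22152 genes, and that middle value hides a split by the cell type in which the members are best known. All 5 genes of the endothelial class were lower, and so were Clec11a and Mrc2 of mesenchymal cells and the platelet gene Clec1b. Cd209b was the only leukocyte-class gene that reached 2-fold in the lower direction, and with normexp background correction (-0.79) or scaling to spike-in RNA (-0.38) it did not. The leukocyte class held 10 of the 12 higher genes, the others being the NK receptor ligands Clec2g and Clec2i. The differences of 5 members were smaller than their own software error, those of Siglech, Clec18a, Clec2e, Clec16a and Cd209f.

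**Figure D1:**
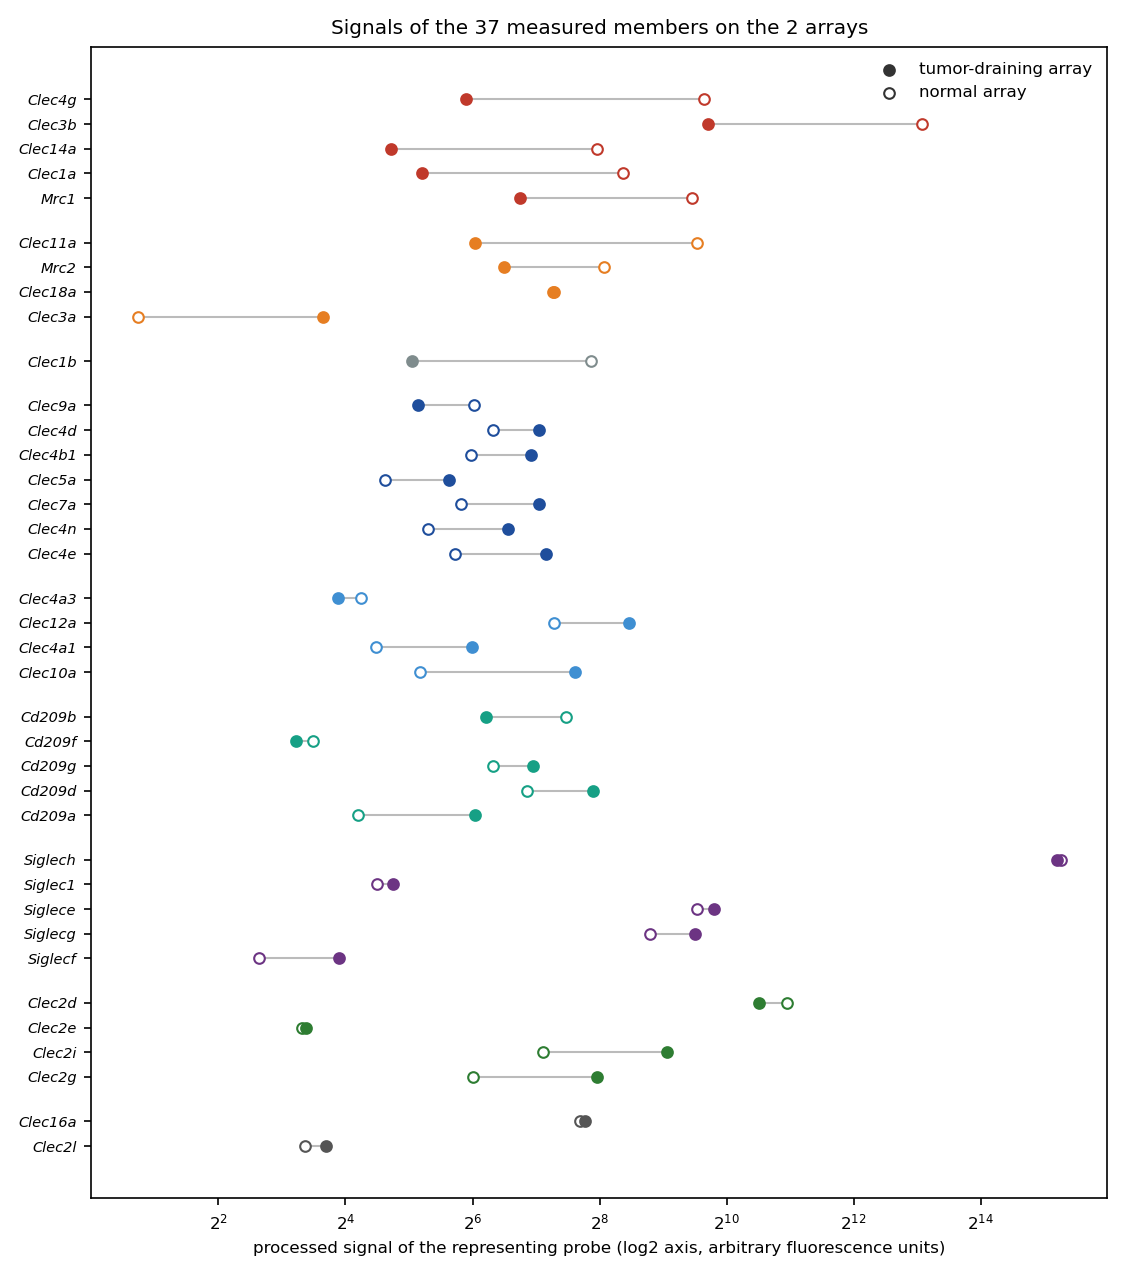
Processed signal of the representing probe of each of the 37 measured genes (log2 axis), filled for the tumor-draining array and open for the normal array, grouped by class from endothelial (top) to other (bottom), with 1 array per group and no error bars. In the 5 endothelial genes the filled point lies far to the left, as for Clec4g at 59.4 against 803, while for most myeloid lectins it lies to the right.

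The endothelial lectins had the lowest median difference of any class with more than 1 gene. Clec4g, known as LSECtin and made by sinus-lining endothelium of liver and lymph node, had a signal of 59.4 on the tumor-draining array and 803 on the normal array, a difference of -3.69, or 12.9-fold lower. Its probe lies at chr8:3716182-3716241 on the mm9 build used by the array files, which do not state exon or UTR. A second, dimmer Clec4g probe had a difference of -0.57, so the size of this difference rests on the brighter probe, and the mean over both was -2.13. Clec14a, an endothelial surface protein known to help vessel cells sprout, had signals of 26.4 on the tumor-draining and 249 on the normal array, and was 9.02-fold lower (probe at chr12:59368573-59368632). Its binding partner in the vessel matrix, Mmrn2, was 8.02-fold lower, with signals of 1149 on the tumor-draining and 9617 on the normal array. Both partners were thus lower on the tumor-draining array. The size for Clec14a depends on the setting, its difference being -1.78 with normexp background correction against -3.17 in the main setting.

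Clec1a, an endothelial receptor that recognizes a fungal melanin, had signals of 36.9 on the tumor-draining and 332 on the normal array, a difference of -3.11. With normexp background correction it was -1.99. Clec3b encodes the secreted plasminogen-binding protein tetranectin, and its signal was 838 on the tumor-draining array and 8594 on the normal array, or 9.83-fold lower. Clec3b is also known from fibroblasts, so its place in the endothelial class is not exclusive. Mrc1, the mannose receptor that clears glycoproteins and is carried by sinus endothelium as well as by macrophages, had the smallest difference of the 5 at -2.65, with signals of 107 and 700 on the tumor-draining and the normal array. The class thus lay between -3.69 and -2.65, with a median of -3.17.

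Markers of the cells that carry these lectins moved the same way. The 6 blood endothelial markers (Cdh5, Emcn, Flt1, Kdr, Tek and Plvap) were all at least 2-fold lower, against 15.9% of all genes. Their median was -3.03, and their summed signal was 3238 on the tumor-draining and 26409 on the normal array. The 6 lymphatic endothelial markers had a median of -2.20, among them Lyve1 at -2.06, and Pecam1, the adhesion molecule CD31, was at -1.17. The part of a lower endothelial share in the values of the lectins was not tested. Mrc1 can also come from macrophages, and the 7 macrophage markers lay between -0.86 and 0.96 with a median of 0.39 and none past 2-fold.

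The mesenchymal and secreted class held the gene with the second lowest difference of all. Clec11a, a secreted growth factor of marrow and bone stroma also called osteolectin, had signals of 65.7 on the tumor-draining and 744 on the normal array, and was 10.9-fold lower (-3.44). Mrc2, the collagen uptake receptor Endo180 of fibroblasts, had signals of 89.9 and 270 on the tumor-draining and the normal array, a difference of -1.52, and its other probe above background on both arrays was at -2.24. Scaled to spike-in RNA, Mrc2 was within 2-fold at -0.70. Clec18a, a secreted lectin, was at 0.04 on 1 of its 5 probes, the other 4 not being well above background. Clec3a, a cartilage lectin, was above background in the tumor-draining sample alone, at 12.5 against 1.66 on the normal array, which gives a bound of at least 1.70-fold higher against the lowest signal among probes above background there. By brightest probe, the 6 fibroblastic reticular markers were all at least 2-fold lower, against 15.9% of all genes, with a median of -2.05. The 4 probes of 1 of them, Col1a1, ran from -2.06 to 0.86, and another, Pdpn, is also among the lymphatic endothelial markers. The part of a lower fibroblastic share in the values of Clec11a and Mrc2 was not tested.

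The mannose receptor family has 4 genes, of which Mrc1 and Mrc2 belong to the set by name. The other members, Pla2r1 and Ly75, were listed as relatives of the set and are singled out here after their values had been seen. Pla2r1, a receptor for secreted phospholipase, was at -2.22, with signals of 49.8 on the tumor-draining and 242 on the normal array. Ly75, the antigen uptake receptor DEC-205 of dendritic cells, was at 1.47, with 207 on the tumor-draining and 78.0 on the normal array. So 3 of the 4 were at least 2-fold lower, against 15.9% of all genes, and the 1 best known from dendritic cells was higher. Clec14a likewise has relatives outside the naming rule in Thbd, the anticoagulant thrombomodulin, at -3.49, and Cd93, an endothelial and myeloid receptor chosen in the same way, at -1.81, and all 3 were at least 2-fold lower.

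Clec1b encodes CLEC-2, a platelet receptor whose ligand podoplanin (Pdpn) is carried by fibroblastic reticular and lymphatic endothelial cells. Clec1b had signals of 33.0 on the tumor-draining and 234 on the normal array, a difference of -2.76, or 6.79-fold lower (probe at chr6:129355215-129355274). With normexp background correction the difference was -1.57. Pdpn was 3.89-fold lower, at 1139 on the tumor-draining and 4624 on the normal array, so receptor and ligand were both lower. Of 5 platelet markers, Pf4 was at -2.87, Itga2b at -2.61 and Gp6 at 0.35, while Gp9 and Ppbp were above background on the normal array only. The part of platelet RNA in the Clec1b value was not tested.

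**Figure D2:**
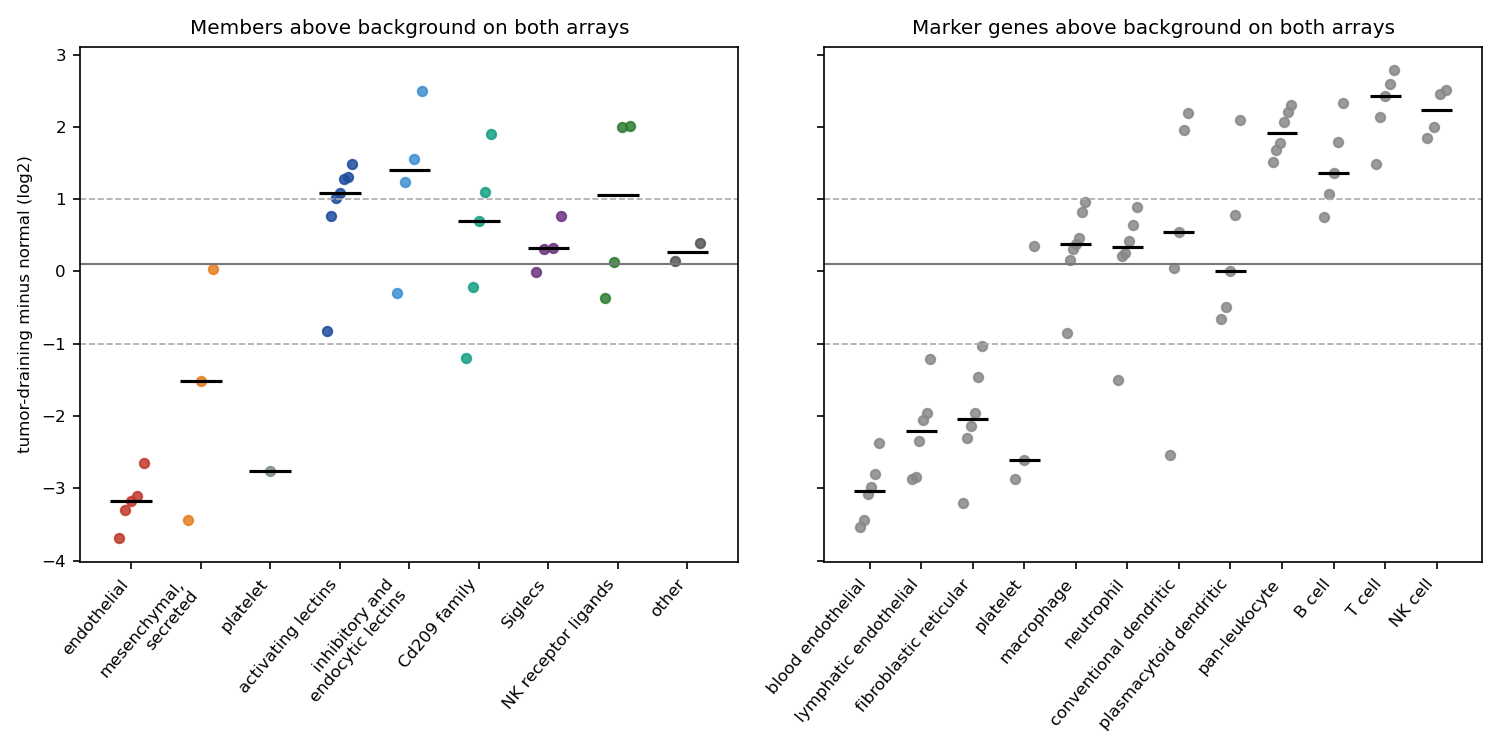
Tumor-draining minus normal (log2) for each member above background on both arrays, by class (left), and for marker genes of cell types (right), with black bars at class medians, a gray line at the median of all genes measured (0.10) and dashed lines at 2-fold, 1 array per group. The endothelial lectins lie at the level of the blood endothelial markers (medians -3.17 and -3.03). The activating lectins, with a median of 1.08, lie above the macrophage (0.39), neutrophil (0.34) and conventional dendritic markers (0.55) and below the pan-leukocyte markers (1.92). The conventional dendritic markers went both ways, from -2.54 to 2.20.

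Activating myeloid lectins were mostly higher on the tumor-draining array. Of 8 genes in this group, 7 were above background on both arrays, 5 of them were at least 2-fold higher and none was 2-fold lower, where 11.1% of all genes were higher. With normexp background correction none of the 5 reached 2-fold, their differences lying between 0.47 for Clec5a and 0.96 for Clec4e. Under that setting the share of all genes at least 2-fold higher was 6.21%. Clec4e, the receptor Mincle that binds mycobacterial cord factor, had signals of 143 on the tumor-draining and 53.0 on the normal array, a difference of 1.49. Clec4n, or Dectin-2, a receptor for fungal mannans, had 94.0 on the tumor-draining and 39.5 on the normal array (1.31), and Clec7a, or Dectin-1, which binds beta-glucan, had 131 and 56.6 (1.28) on the same arrays. For each of these 3 genes the tumor-draining signal was the higher one, by less than 3-fold.

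Clec5a and Clec4b1 stood just past 2-fold. Clec5a, a myeloid receptor that signals through the adaptors encoded by Tyrobp and Hcst, had signals of 49.7 on the tumor-draining and 24.5 on the normal array (1.08). Clec4b1, a dendritic cell receptor that pairs with the Fc receptor gamma chain, had 122 on the tumor-draining and 62.9 on the normal array (1.01). Clec4d, which pairs with Mincle, stayed within 2-fold at 0.77, and Clec9a, the receptor by which cross-presenting dendritic cells bind exposed actin of dead cells, had the only negative difference of the group at -0.82. Its other probe was at -0.46, so both Clec9a probes were lower on the tumor-draining array, at 35.2 against 64.7 for the brighter one. Clec4b2 was not well above background on either array.

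Inhibitory and endocytic lectins included the highest difference among members above background on both arrays. Clec10a, which binds galactose and N-acetylgalactosamine on dendritic cells and macrophages, had signals of 197 on the tumor-draining and 36.2 on the normal array, a difference of 2.50, or 5.66-fold higher (probe at chr11:69984232-69984291). The other Clec10a probe was not well above background on either array, and the mean over both was 1.34. The Clec10a relative Mgl2, named here after the values had been seen, was at 0.55 on its brighter probe and -0.11 on the other. Clec4a1, of the DCIR group, had 63.3 on the tumor-draining and 22.4 on the normal array (1.56), and Clec12a, an inhibitory receptor for uric acid crystals, had 352 and 155 (1.24) on the same arrays. Clec4a3 was at -0.30, so the DCIR genes went both ways. With normexp background correction Clec4a1 was within 2-fold at 0.65. Clec12b, Clec4a2, Clec4a4 and the Kupffer cell receptor Clec4f were not well above background on either array.

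The Cd209 family went both ways. Cd209a, the mouse DC-SIGN gene of dendritic cells, was 3.75-fold higher, with signals of 65.9 on the tumor-draining and 18.3 on the normal array, and Cd209d was 2.15-fold higher, with 238 and 116 on those arrays. Cd209b, the receptor SIGN-R1 of sinus and marginal zone macrophages and of sinus endothelium, was 2.30-fold lower, with 74.1 on the tumor-draining and 178 on the normal array, and its second probe was at -0.88. With normexp background correction all 3 were within 2-fold, Cd209a at 0.72, Cd209d at 0.86 and Cd209b at -0.79. Cd209g was at 0.69 and Cd209f at -0.22, and Cd209c and Cd209e were not well above background on either array.

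None of the 4 Siglecs above background on both arrays passed 2-fold with each array scaled to its 75th percentile. Scaled to spike-in RNA, which moved the median of all genes to 0.92, 3 of the 4 did, Siglecg at 1.59, Siglece at 1.15 and Siglec1 at 1.13. Under that scaling 46.7% of all genes were at least 2-fold higher, against 11.1% in the main setting. Siglecg, an inhibitory receptor of B cells, had signals of 727 on the tumor-draining and 444 on the normal array (0.77), less than the median of 1.36 over the 5 B cell markers. Siglece, an inhibitory receptor of myeloid cells, had 890 on the tumor-draining and 740 on the normal array (0.33). Siglec1, the sialoadhesin of sinus macrophages, had 26.9 on the tumor-draining and 22.7 on the normal array, a difference of 0.31 that was close to its software error of 0.25. Siglecf, of eosinophils and alveolar macrophages, was above background in the tumor-draining sample alone, at 14.9 against 6.21 on the normal array, a bound of at least 2.01-fold higher. Signals of Siglecg, Siglece and Siglec1 were thus somewhat higher on the tumor-draining array, short of 2-fold, and Siglec15 was not well above background on either.

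Siglech, a receptor of plasmacytoid dendritic cells, depends on the probe. Its brightest probe had 37544 on the tumor-draining and 39238 on the normal array, a difference of -0.002, while its 2 other probes were at 0.56 and 1.35. That bright probe was the only 1 of the 76 to share 20 or more bases in a row with a probe of another gene. The 2 dimmer probes read 19.2 and 30.4 on the tumor-draining array and 13.5 and 12.4 on the normal array. Without the bright probe, an alternative chosen after seeing the data, Siglech was at 1.35 and the higher members numbered 13.

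The Clec2 genes encode ligands of NKR-P1 receptors of natural killer cells. Clec2g was at 2.02, with signals of 250 on the tumor-draining and 64.6 on the normal array, and Clec2i, a ligand of the receptor encoded by Klrb1f, was at 2.00, with 531 and 139 on the same arrays. The second Clec2i probe was at 1.49. Clec2d, a ligand by which cells restrain natural killer cells through the Klrb1b product, was at -0.37, with 1465 on the tumor-draining and 1971 on the normal array, and its second probe gave -0.40. Clec2g and Clec2i thus had almost the same difference, while Clec2d and Clec2e (0.13) stayed within 2-fold. Clec2f and Clec2h were not well above background on either array. Of the receptors, Klrb1c was at 1.53, Klrb1a at 1.21 and Klrb1f at -0.33, and Klrb1b was not well above background. The 4 NK cell markers had a median of 2.23, and their part in these values was not tested.

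Genes that pass on signals from these receptors were mostly higher. Of 12 adaptors, kinases and phosphatases, 11 were above background on both arrays, 7 of them at least 2-fold higher and none 2-fold lower. Over all genes above background on both arrays, 11.1% were higher and 15.9% lower. The median was 1.28 over the 11 and 0.12 over all those genes. Hcst, the adaptor DAP10, was at 2.35 and Malt1, a scaffold protease downstream of Syk, at 1.76, while Bcl10 was at 0.66 and the phosphatase gene Ptpn11 at -0.38. Syk was at 0.78 on its brightest probe and up to 1.86 on others. Card9, the adaptor that links Syk to NF-kB in myeloid cells, was above background in the normal sample alone, with signals of 7.85 on the tumor-draining and 9.17 on the normal array. The 6 pan-leukocyte markers had a summed signal of 65804 on the tumor-draining and 18511 on the normal array. All 6 were at least 2-fold higher, against 11.1% of all genes, among them Ptprc at 2.30. Their part in these values was not tested.

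Genes for relatives of the set and for sialic acid, the ligand of Siglecs, showed no common direction. Of 16 lectin-fold and Siglec relatives outside the naming rule, 14 were above background on both arrays. Among these, 4 were 2-fold higher or more and 5 were 2-fold lower or more, where 11.1% of all genes were higher and 15.9% lower. Cd22, the sialic acid receptor of B cells, was at 2.55, and Cd69, an early activation antigen of lymphocytes, at 1.87, against Thbd at -3.49 and Cd302 at -2.30. Of 12 sialic acid enzymes, 9 stayed within 2-fold, 2 were higher and 1 was lower, little different from the shares over all genes. St6gal1, which makes the preferred ligand of the Cd22 product, was at 1.92 and St8sia4 at 1.19, while St3gal4 was at -1.30 and the sialic acid transporter gene Slc35a1 at -0.95. Spn, which encodes the sialylated leukocyte surface protein CD43, was at 1.73.

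Many of these genes lie side by side, and some neighbors differed in direction. Others did not, such as Clec2g and Clec2i at 2.02 and 2.00, with probes 86.5 kb apart. On chromosome 8, the probes of Clec4g and Cd209a are 27.2 kb apart, and their differences were -3.69 and 1.91. On chromosome 6, the probes of Clec1a and Clec7a are 34.1 kb apart with differences of -3.11 and 1.28, and those of Clec1b and Clec12a are 40.8 kb apart with -2.76 and 1.24. The probe of Clec12b, not well above background on either array, lies between those of Clec1b and Clec12a. Clec9a, whose probe stands between those of Clec1b and Clec1a, lies 4.99 kb from Clec1a by probe position and was at -0.82. In the third cluster, from Clec4a1 to Clec4e on chromosome 6, 6 of 9 genes were above background on both arrays, and all but Clec4a3 (-0.30) had positive differences, from 0.77 for Clec4d to 1.56 for Clec4a1. So the clusters with an endothelial or platelet gene held both directions, while the Clec4a1 to Clec4e cluster held no gene that was 2-fold lower.

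**Figure D3:**
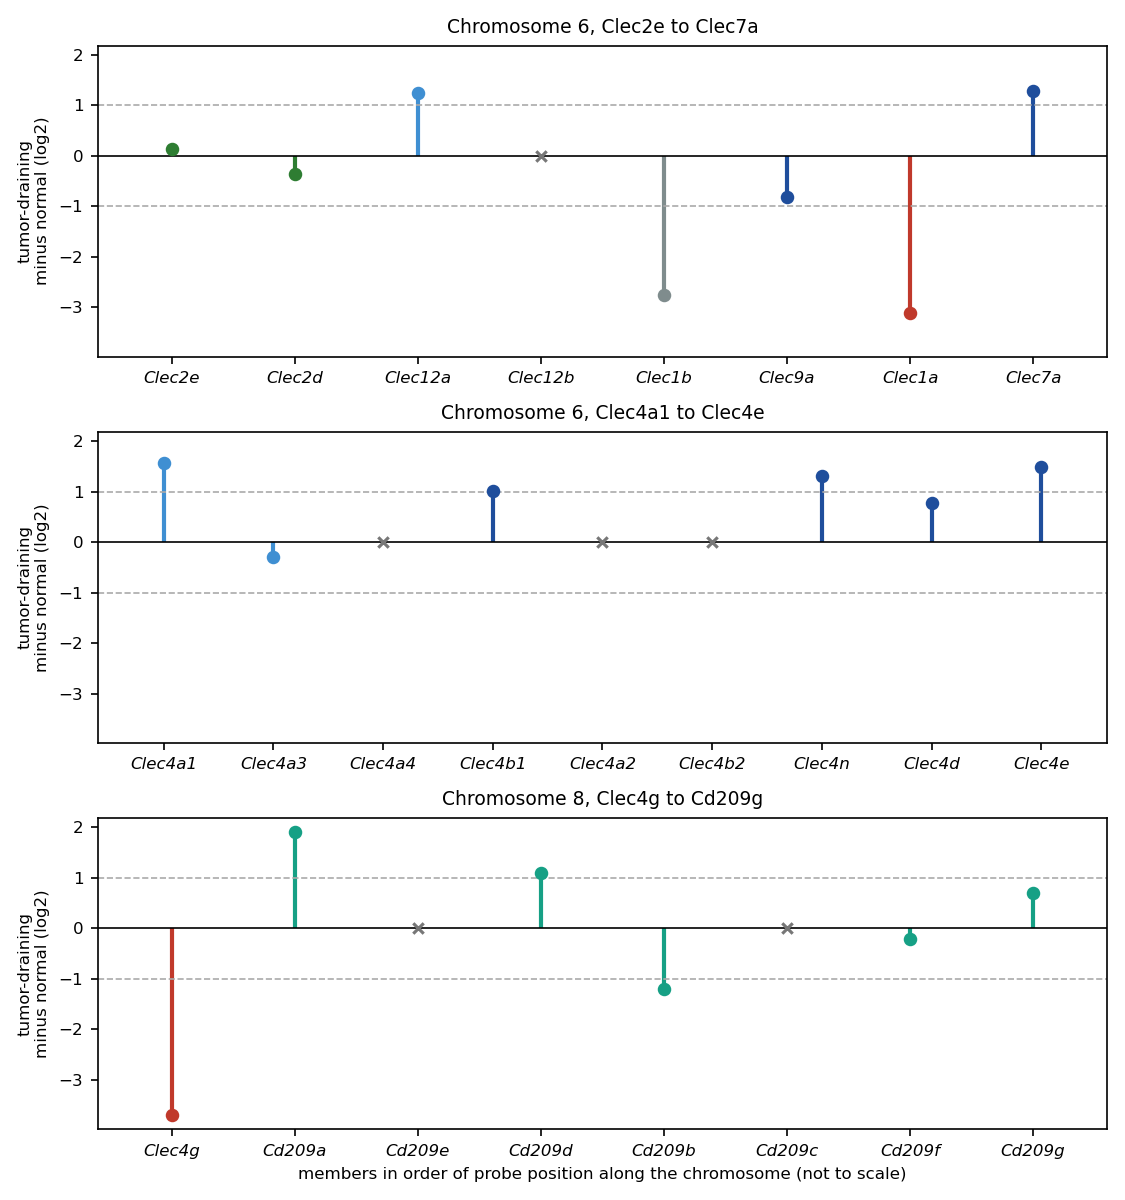
Tumor-draining minus normal (log2) for members in order of probe position along 3 gene clusters (not to scale), with crosses for genes not well above background on both arrays and dashed lines at 2-fold. Clec4g (-3.69) stands next to Cd209a (1.91), and Clec1a (-3.11) between Clec9a (-0.82) and Clec7a (1.28).

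The sequences just upstream of the start of 4 of these neighbors are shown because each pair moved apart, 250 bases each, 5′ to 3′ on the gene's strand, from RefSeq on the GRCm38.p6 build. Capitals mark GAGGAA or its reverse complement TTCCTC, letters within the usual site of PU.1, a transcription factor of myeloid and B cells. These are chr8:3720652-3720901 on the minus strand for Clec4g, chr8:3748985-3749234 on the minus strand for Cd209a, chr6:129397047-129397296 on the plus strand for Clec1b and chr6:129349994-129350243 on the plus strand for Clec12a.
Clec4g: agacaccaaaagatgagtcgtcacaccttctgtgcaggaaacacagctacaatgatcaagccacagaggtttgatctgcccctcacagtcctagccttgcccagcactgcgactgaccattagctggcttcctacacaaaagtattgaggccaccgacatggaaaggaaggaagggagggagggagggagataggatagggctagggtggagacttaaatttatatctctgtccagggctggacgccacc
Cd209a: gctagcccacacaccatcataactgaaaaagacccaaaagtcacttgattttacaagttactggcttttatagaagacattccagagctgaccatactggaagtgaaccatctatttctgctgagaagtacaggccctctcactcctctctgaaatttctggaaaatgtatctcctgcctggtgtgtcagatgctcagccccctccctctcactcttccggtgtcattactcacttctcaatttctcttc
Clec1b: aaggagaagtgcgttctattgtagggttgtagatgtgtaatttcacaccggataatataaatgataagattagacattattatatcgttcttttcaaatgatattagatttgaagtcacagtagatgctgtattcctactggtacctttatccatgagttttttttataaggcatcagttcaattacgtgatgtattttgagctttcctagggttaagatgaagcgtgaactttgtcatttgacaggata
Clec12a: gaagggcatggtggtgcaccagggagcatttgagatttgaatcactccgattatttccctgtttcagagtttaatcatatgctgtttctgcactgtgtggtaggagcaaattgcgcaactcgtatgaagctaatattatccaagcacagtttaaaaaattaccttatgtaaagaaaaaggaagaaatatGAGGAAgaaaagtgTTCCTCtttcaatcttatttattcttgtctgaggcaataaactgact

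Clec12a held the letters 2 times in its window, and Clec4g, Cd209a and Clec1b did not hold them. RefSeq windows were found for 37 of the 47 genes. On either strand, the letters were in 14 of 27 windows of leukocyte members, in 2 of 3 windows of endothelial members and in 23.3% of 32851 windows of all genes, where some genes have several overlapping windows. Among endothelial members Mrc1 held them 3 times and Clec14a 1 time. Of the neighbors shown, the higher Clec12a held the letters, while the higher Cd209a lacked them, as did the lower Clec4g and Clec1b. Of the remaining pair, Clec7a held them 1 time in each of its windows, and no window was found for Clec1a. Mrc1 and Clec14a lie in none of these clusters and were lower, so the letters were not confined to higher genes. A match or its lack says nothing here on binding.

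Set against each other, the endothelial members had a median difference of -3.17 and the 20 leukocyte members above background on both arrays one of 0.89, a gap of -4.07 on the log2 scale. With Siglecf, which was above background only where it was brighter, the leukocyte median was 1.01 and the gap -4.19. By the brightest probe of each gene, the lowest leukocyte member above background on both arrays was Cd209b at -1.20. It lay above the highest endothelial member, Mrc1 at -2.65. The dimmer Clec4g probe, at -0.57, lay above Cd209b, so the classes were apart by brightest probe but not by every probe. All 5 endothelial genes stayed at least 2-fold lower under each of the settings tried that kept them. Of all genes, 8.08% (spike-in scaling) to 18.3% (loess) were that much lower under these settings. Of the 10 leukocyte genes that were at least 2-fold higher, 8 were within 2-fold under at least 1 setting. With normexp background correction the leukocyte median, Siglecf included, was 0.51. Only Clec10a and Clec12a of the class then remained at least 2-fold higher, 4 members in all with Clec2g and Clec2i. Of all genes, 6.21% were that much higher with normexp, against 11.1% in the main setting. Scaled to spike-in RNA, where the median of all genes was 0.92, 18 members were higher and 7 lower, or 72.0% of calls higher against 57.1% in the main setting, and 85.2% against 41.0% over all genes.

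**Figure D4:**
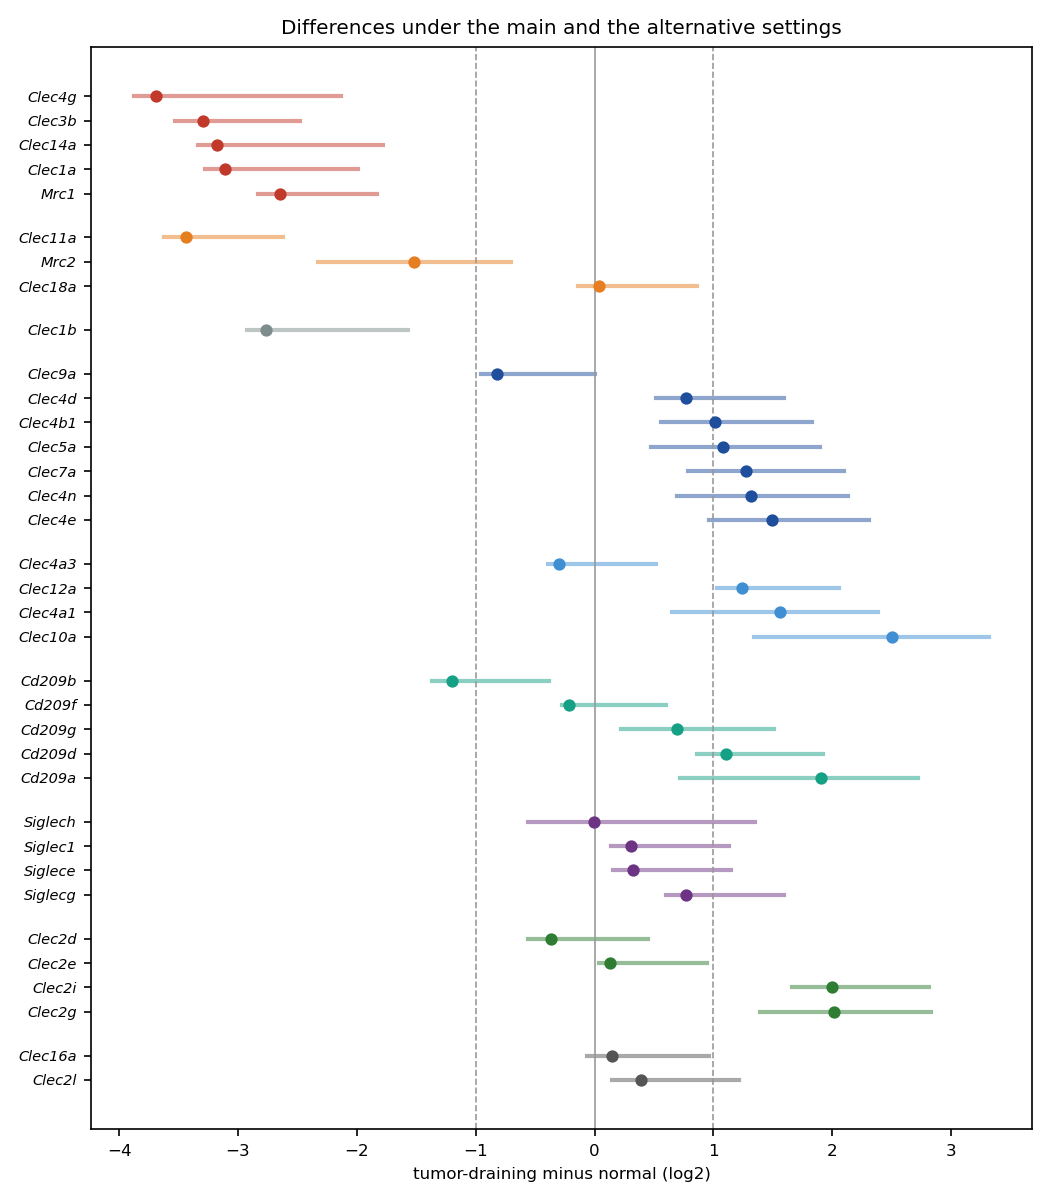
Tumor-draining minus normal (log2) for the 35 genes above background on both arrays, as reported (points) and as the range over the alternative settings (bars), with a solid line at 0 and dashed lines at 2-fold. The bars of the 5 endothelial genes stay left of the 2-fold line, while those of 10 of the 21 genes past 2-fold cross a 2-fold line, namely Cd209a, Cd209b, Cd209d, Clec4a1, Clec4b1, Clec4e, Clec4n, Clec5a, Clec7a and Mrc2.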

How the data were processed

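RNA of CD45-negative lymph node cells was hybridized to 2 one-color Agilent mouse arrays, 1 for each group, per the labels' protocols. In the deposited scanner files the spot intensities are linear, background-subtracted by Feature Extraction (version 12.0.3.1, protocol GE1_1200_Jun14, per the file headers), while the submitters' processing notes name version 10.7 and limma. The deposited value table holds log2 values of unstated scale, which followed the scanner values of the same arrays (r = 0.9999 for tumor-draining and 0.9997 for normal, column medians 4.86 and 4.85). Its values entered only as an alternative.

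Control spots and spots marked as outliers were left out, log2 processed signals were reduced by the 75th percentile over 59305 spots of each array, and the brightest probe on average stood for its gene. A probe was above background where the software had marked 50% or more of its spots so. Of 56605 probes, 35572 were above background on the tumor-draining and 36783 on the normal array, and no member spot was saturated or marked. A bound compares the brighter signal with the dim one or with the lowest signal above background on that array, whichever is larger. The call rule was checked on simulated data with no true change at the 2-fold cut. That check says nothing on genes close to the cut, or on differences between mice or between sorts.

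The members and lists were chosen with earlier results of these data known. Every measured member may be named, and of each list of related genes the 2 highest and 2 lowest, plus Ptprc, Pecam1, Lyve1, Pdpn, Mmrn2, Syk and Card9. Klrb1a, Klrb1f, the relatives Mgl2, Pla2r1, Ly75 and Cd93, and markers of cell types were named after their values had been seen.

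Alternatives were normexp (offset 50), quantile and loess normalization (span 0.3), other scalings (1 of them to 6 spike-in probes under a signal of 60000), other background filters, means over probes or members, and the authors' table. Python 3.11.15, R 4.3.3 and limma 3.58.1 were used.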

Additional observations from a re-analysis of the deposited data

How the results depend on the processing

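No paired analysis was possible because each group has 1 array and the labels give no replicate numbers. The endothelial median, reported as -3.17, ranged from -3.33 to -2.13 over all settings, the leukocyte median (1.01 with Siglecf, 0.89 without) from 0.51 to 1.83 and the gap between them (-4.19 and -4.07) from -4.25 to -2.64, with no change of sign. With normexp background correction these were -2.13, 0.51 and -2.64, and 4 members were at least 2-fold higher, against 12 in the main setting. The 4 made up 33.3% of the members' calls, where 36.2% of the calls over all genes were higher. Scaled to spike-in RNA the medians were -2.35 and 1.83. Among genes no dimmer on average than the median gene measured, 11 members were left, of which 2 were higher and 4 lower, with a leukocyte median of 0.55 over 4 genes and a gap of -3.85. Of the 12339 genes above background on both arrays that this filter kept, 10.2% were higher and 15.1% lower. By construction that filter keeps fewer genes. Spike-in scaling, also by construction, moves every difference by the same amount, and the gap stayed at -4.19. Normexp here adds an offset of 50 to each signal of both arrays, which by arithmetic shrinks log2 differences most where signals are dim. How much of the normexp shifts comes from this offset was not tested. All other values of these medians lay within 0.27, the spread between probes of 1 gene, of those reported, and the other counts within 1.5 times. No member past 2-fold turned to the opposite sign under any of these settings. Under loess, Cd209d, Clec4b1 and Clec5a were no longer 2-fold higher, and under the mean over all probes Clec4b1, Clec5a and Clec7a were not. Cd209b was within 2-fold with normexp and spike-in scaling, and Mrc2 with spike-in scaling.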

Other observations

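The bright Siglech probe, at chr7:63034088-63034147 on mm9, shared 20 bases in a row, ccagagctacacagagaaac, with a probe that the array files assign to Samd11. The run is shown because both probes were far brighter than the median probe. The Samd11 probe had a signal of 32171 on the tumor-draining and 30170 on the normal array, and these were the only 2 probes of the array that held this run. The median signal over all probes was 27.9 on the tumor-draining and 30.1 on the normal array. The same Siglech probe shared runs of 20 or 21 bases, a repeat of aaag, with probes for Chat, Syne2 and Coro2a, whose signals lay between 22.1 and 39.0 on the tumor-draining array and between 15.6 and 67.7 on the normal array. What the bright Siglech probe measures was not tested.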
